A study of Mus musculus with 15 samples.

Results

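The NADPH oxidase family was followed in mouse liver through 5 genes of the 26264 in the count table, Nox4, Cybb, Cyba, Ncf1 and Ncf4, which were taken by their symbols. RNA sequencing of polyadenylated liver RNA gave 3 libraries in each of 5 groups. The groups were HFD-337 (a high-fat diet with Gc337, the agent used in the series to knock down the kinase STK25), HFD-338 (a high-fat diet with an item the labels give only as a number), HFD-Res (a high-fat diet with resmetirom, a drug that activates the beta receptor of thyroid hormone), HFD-NS (a high-fat diet) and SD-NS. The labels do not spell out SD, NS or that number, and they give no strain, sex, age, dose, route or agent control. The diet serves as the series' mouse model of MASLD, a steatotic liver disease with metabolic dysfunction, and all groups other than SD-NS received it. The 5 genes were selected on how their measured levels differed between these same groups, so their own differences are described without a p-value.

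NADPH oxidases are membrane enzymes that pass electrons from cytosolic NADPH to oxygen and release superoxide or hydrogen peroxide. In phagocytes the catalytic subunit Cybb sits in the membrane with Cyba, and it is switched on when the cytosolic organizer Ncf1, the regulator Ncf4 and the small GTPase Rac2 are recruited to it. Nox4 is a catalytic subunit of its own that also pairs with Cyba but needs no cytosolic activator, releases mostly hydrogen peroxide, and has been described in hepatocytes and in stellate cells of the liver. Cyba therefore belongs to both enzymes.

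Libraries held 3873903 to 9797743 counts, and 13189 genes had enough counts to be tested, all 5 members among them. Levels are counts scaled to library size by the trimmed mean of M-values (TMM-scaled CPM), and levels of different genes are compared as TPM, which also divides by exon length. A gene is called where edgeR's quasi-likelihood test over all 15 libraries gave a Benjamini-Hochberg adjusted p under 0.05 over all genes tested, and p-values measure the spread between these samples only. Stk25, the targeted gene, averaged 17.5 ± 2.51 CPM in HFD-337 and 21.5 ± 0.811 CPM in HFD-338, against 46.5 ± 2.53 CPM in HFD-NS (SD, n = 3 each), and 42.0 ± 4.62 CPM in HFD-Res. It was thus low in both groups named by a number. Summed markers of hepatocytes lay between 72648 and 130562 CPM in all libraries, and none of the 8 was at 0. HFD-337 replicate 23 stood apart from its group in blood and macrophage markers, with 536 CPM of the globin gene Hbb-bs against 93.2 and 199 CPM in the others. HFD-338 replicate 18 held 163 CPM of summed neutrophil markers against 8.11 and 15 CPM in its group.

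The 250 bases before the start of 4 members are shown because Cybb, Cyba and Ncf1 moved together across the groups while Nox4 did not move with them. They come from the RefSeq promoter table (GRCm38.p6) and are written in the direction of transcription. The windows are chr7:87246399-87246648 on the plus strand for Nox4, chrX:9469325-9469574 on the minus strand for Cybb, chr8:122432941-122433190 on the minus strand for Cyba and chr5:134229626-134229875 on the minus strand for Ncf1. Capitals mark the purine-rich ETS factor core AGGAA, the CCAAT box CCAAT and the GC box GGGCGG, each on either strand.
Nox4: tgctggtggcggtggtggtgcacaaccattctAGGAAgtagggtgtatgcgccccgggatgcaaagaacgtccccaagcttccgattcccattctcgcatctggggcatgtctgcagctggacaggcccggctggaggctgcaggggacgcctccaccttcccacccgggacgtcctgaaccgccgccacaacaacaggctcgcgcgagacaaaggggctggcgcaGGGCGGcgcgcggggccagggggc
Cybb: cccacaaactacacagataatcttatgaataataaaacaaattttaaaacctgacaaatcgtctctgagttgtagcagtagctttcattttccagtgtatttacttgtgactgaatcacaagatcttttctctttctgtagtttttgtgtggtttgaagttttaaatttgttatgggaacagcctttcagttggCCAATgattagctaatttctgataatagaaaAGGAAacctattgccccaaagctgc
Cyba: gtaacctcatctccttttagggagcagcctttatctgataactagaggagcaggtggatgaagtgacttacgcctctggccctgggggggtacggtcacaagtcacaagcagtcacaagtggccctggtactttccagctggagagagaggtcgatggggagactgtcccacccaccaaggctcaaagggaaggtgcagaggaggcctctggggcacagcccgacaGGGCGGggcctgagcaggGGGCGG
Ncf1: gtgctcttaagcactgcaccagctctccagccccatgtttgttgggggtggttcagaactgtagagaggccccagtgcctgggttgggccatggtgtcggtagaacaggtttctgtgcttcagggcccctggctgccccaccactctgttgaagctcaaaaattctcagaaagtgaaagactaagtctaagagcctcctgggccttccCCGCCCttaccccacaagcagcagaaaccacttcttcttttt
The last base of each line is the base just before the start. AGGAA began 25 bases before the start of Cybb and 218 bases before that of Nox4. CCAAT was found once, 56 bases before the start of Cybb. GGGCGG began 24 and 6 bases before the start of Cyba, 24 bases before that of Nox4 and, on the other strand, 42 bases before that of Ncf1. Of 32851 promoter windows of the same length, 60.3% held AGGAA, 33.8% CCAAT and 32.7% GGGCGG. The longer core GAGGAA, which holds AGGAA within it, was in none of the 4 windows and in 23.3% of all, the TATA box TATAAA in none and 12.4%, and the nuclear receptor half-site AGGTCA in none and 14%. These are matches of letters, and nothing was measured at these positions.

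Nox4, a gene of 152 kb on chromosome 7 (86895857 to 87047916 in mm39), was far lower in HFD-Res livers than in any other group. Its libraries held 58.5, 69.7 and 107 CPM in HFD-337, 55.9, 42.9 and 67.7 CPM in HFD-338, and 3.0, 4.14 and 6.68 CPM in HFD-Res, against 69.7, 58.9 and 77.7 CPM in HFD-NS. The SD-NS libraries held 70.7, 76.6 and 64.4 CPM. Every HFD-Res library lay below every library of the other groups, and the other groups overlapped their neighbours in the order HFD-337, SD-NS, HFD-NS and HFD-338 from high to low.

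The HFD-Res mean of 4.61 ± 1.89 CPM was 6.70% of the HFD-NS mean of 68.8 ± 9.46 CPM (SD, n = 3 each), a level 14.9-fold lower. Behind it stood 14, 18 and 46 counts in HFD-Res libraries, against 597, 474 and 737 counts in HFD-NS libraries. The fitted log2 fold change was -3.83 with an SE of 0.306. It ranked 15 from the lowest of the 13189 genes tested, and it was the lowest of 1028 tested genes that span 100 to 200 kb. Nox4 was among the 6.74% of genes called lower in HFD-Res against HFD-NS, a share from which nothing is read because the gene was selected on these values. Against HFD-Res, Nox4 was higher by 4.02 (SE 0.308) in HFD-337 and by 3.52 (SE 0.309) in HFD-338 on the log2 scale. It was among the 24.3% and 22.2% of genes called higher there, and both comparisons share the HFD-Res libraries with the one above.

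The remaining differences of Nox4 were small beside its spread. The log2 fold change was 0.19 (SE 0.225) in HFD-337 against HFD-NS, -0.31 (SE 0.226) in HFD-338 against HFD-NS and -0.04 (SE 0.228) in HFD-NS against SD-NS, and none was called. In HFD-337 against HFD-338 it was 0.50 (SE 0.228), with overlapping libraries. This difference was not called, but it was called with limma-voom, without HFD-337 replicate 23 and without HFD-338 replicate 19. Of the 1028 tested genes of similar span, 417 fell and 94 rose in HFD-337 against HFD-NS, with a median log2 fold change of -0.33.

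Markers of the cell types in which Nox4 has been described were read beside it. Summed hepatocyte markers lay between 72648 and 80013 CPM in HFD-Res and between 97891 and 111209 CPM in HFD-NS, with libraries that did not overlap. Of the 8 markers the transport protein gene Ttr fell by 0.99 on the log2 scale (edgeR adjusted p = 5.72e-05), the albumin gene Alb fell by 0.56 (adjusted p = 0.0243) and Ahsg, which encodes a plasma protein, rose by 0.53 (adjusted p = 0.00522). The Alb call was lost without HFD-Res replicate 30 or 34 or HFD-NS replicate 16 (highest adjusted p 0.0968). Alb made up most of the hepatocyte sums, with 56127 ± 3331 CPM in HFD-Res and 82666 ± 6172 CPM in HFD-NS. The median log2 fold change of the 8 markers was -0.07, and 13% of all tested genes were called in HFD-Res against HFD-NS. Summed stellate cell and fibroblast markers lay between 520 and 575 CPM in HFD-Res and between 454 and 568 CPM in HFD-NS, and 0 of 13 were called, with 1 lower at an unadjusted p under 0.05 and 0 by DESeq2 or limma-voom. In HFD-338, where Nox4 differed from HFD-NS by -0.31 on the log2 scale, these stellate cell and fibroblast markers summed to 967 to 1665 CPM. In a bulk library, fewer cells of a type and less RNA per cell cannot be told apart. The part of these shifts in the Nox4 difference was not tested.

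The genes whose log2 CPM was most like that of Nox4 over the 15 libraries were Egln3, a prolyl hydroxylase that marks hypoxia-inducible factors for degradation, with a Pearson r of 0.958 (Spearman rho 0.729), Cyp2c23, a cytochrome P450 enzyme, with an r of 0.953 (rho 0.657), and Neb, which encodes the giant muscle protein nebulin, with an r of 0.953 (rho 0.761). All had their lowest mean in HFD-Res: Egln3 averaged 7.06 CPM there and 18.2 CPM in HFD-NS, Cyp2c23 17.7 CPM in HFD-Res and 159 CPM in HFD-NS, and Neb 4.26 CPM in HFD-Res and 16.6 CPM in HFD-NS. The libraries share their groups and depths, so these values are given with no p, and counts of Cyp2c genes may be split among close copies. These genes were picked for likeness to Nox4, which was selected on its levels, so nothing is read from their shared lowest group.

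**Figure D1:**
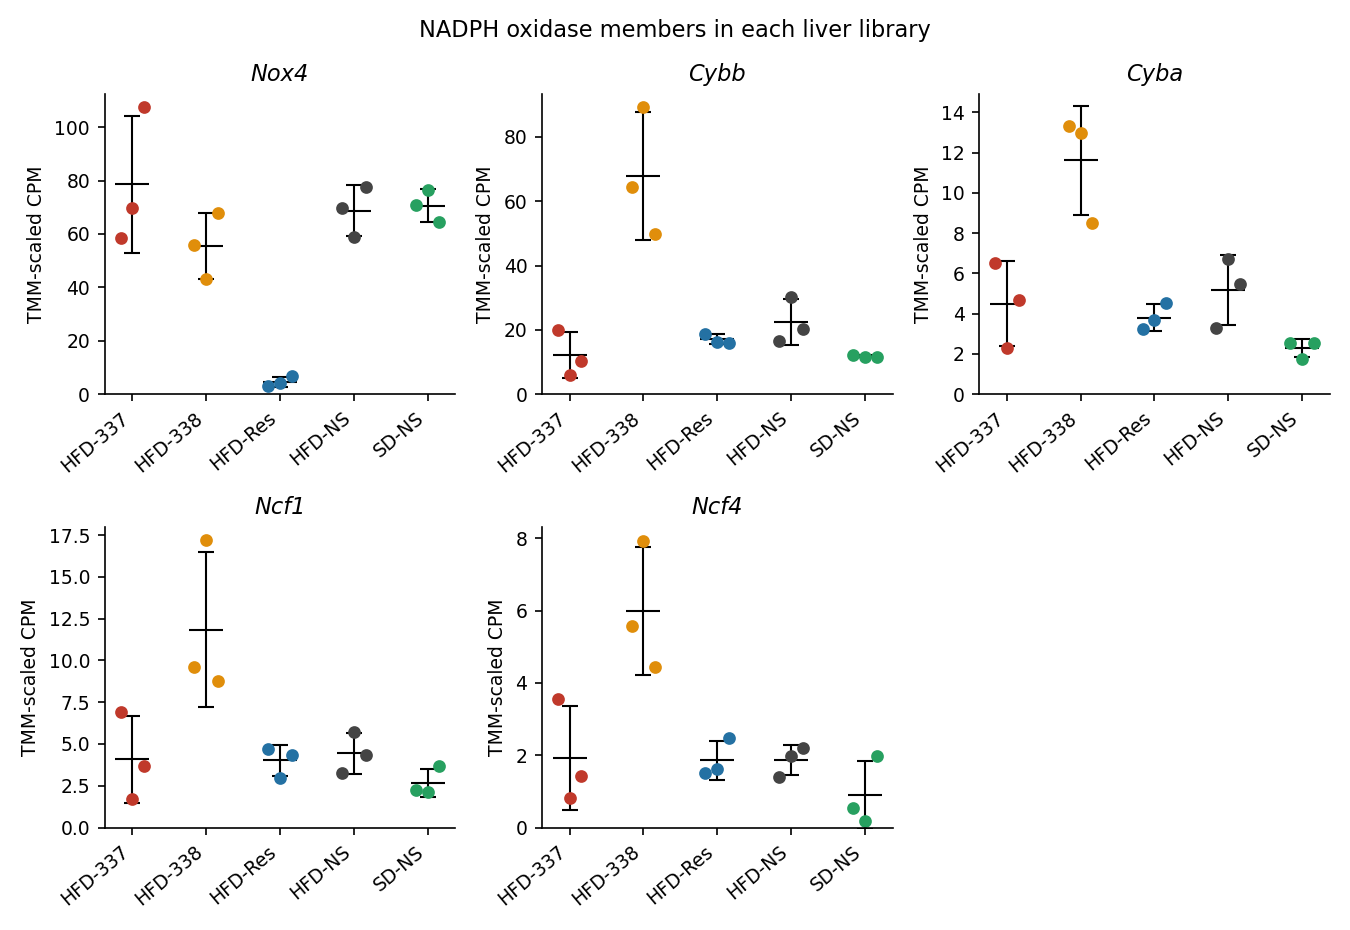
TMM-scaled CPM of Nox4, Cybb, Cyba, Ncf1 and Ncf4 in every library, in HFD-337, HFD-338, HFD-Res, HFD-NS and SD-NS; horizontal bars are group means and vertical bars 1 SD, drawn down to 0 at the lowest (n = 3 per group). Nox4 lay between 3.0 and 6.68 CPM in HFD-Res and above 42 CPM elsewhere, and the other genes were highest in the HFD-338 libraries.

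The phagocyte subunits followed a different order, with HFD-338 on top. Cybb, on the X chromosome (9301493 to 9335563), held 20.1, 5.99 and 10.4 CPM in HFD-337, 64.5, 89.3 and 49.9 CPM in HFD-338 and 18.8, 16.3 and 16 CPM in HFD-Res, against 16.5, 30.3 and 20.2 CPM in HFD-NS. SD-NS libraries held 12.2, 11.7 and 11.5 CPM. Every HFD-338 library lay above every library of the other groups, and the rest overlapped their neighbours in the order HFD-NS, HFD-Res, HFD-337 and SD-NS. The HFD-338 mean was 67.9 ± 19.9 CPM and the HFD-NS mean 22.3 ± 7.15 CPM, with a log2 fold change of 1.61 (SE 0.328).

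Cyba, the membrane partner of both catalytic subunits (chromosome 8, 123151510 to 123159679), was expressed at 6.50, 2.31 and 4.67 CPM in HFD-337, 13.3, 13 and 8.51 CPM in HFD-338, and 3.21, 3.68 and 4.50 CPM in HFD-Res, against 3.27, 6.70 and 5.48 CPM in HFD-NS. SD-NS libraries held 2.53, 1.75 and 2.53 CPM. The HFD-338 libraries again overlapped no other group, and the log2 fold change in HFD-338 against HFD-NS was 1.18 (SE 0.289). In HFD-Res, where Nox4 was lowest, Cyba differed from HFD-NS by -0.41 (SE 0.342) on the log2 scale, with overlapping libraries.

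Ncf1, the organizer (chromosome 5, 134248907 to 134258479), held 6.89, 1.73 and 3.65 CPM in HFD-337, 9.58, 17.2 and 8.77 CPM in HFD-338, and 4.71, 2.99 and 4.36 CPM in HFD-Res, against 3.27, 5.71 and 4.32 CPM in HFD-NS. SD-NS libraries held 2.26, 2.14 and 3.66 CPM. Its HFD-338 libraries lay above all others, and the highest of them was replicate 18, the library rich in neutrophil markers. Replicate 18 was also the highest HFD-338 library for Cybb and Ncf4, but not for Cyba. It also held the highest sum of Kupffer cell and macrophage markers in its group, 699 CPM against 483 and 270 CPM. The log2 fold change in HFD-338 against HFD-NS was 1.42 (SE 0.354).

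Ncf4, the regulator (chromosome 15, 78129011 to 78146780), was the scarcest member by CPM. It held 3.54, 0.807 and 1.42 CPM in HFD-337, 5.59, 7.92 and 4.45 CPM in HFD-338, and 1.5, 1.61 and 2.47 CPM in HFD-Res, against 1.40, 1.99 and 2.21 CPM in HFD-NS. In SD-NS, libraries held 0.533, 0.194 and 1.97 CPM from 4, 1 and 7 counts. HFD-338 overlapped no other group and differed from HFD-NS by 1.67 (SE 0.421) on the log2 scale, and the other groups overlapped their neighbours. Ncf4 passed the low-count filter of 1.41 CPM in at least 3 libraries, which takes CPM before TMM scaling, so it can differ from the levels above. That level was reached by all 3 libraries of HFD-338 and of HFD-Res, 2 of HFD-NS and 1 each of HFD-337 and SD-NS.

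All 4 phagocyte members were called higher in HFD-338 against HFD-NS, where 18.9% of tested genes were called higher, and 4 were called higher in HFD-338 against HFD-Res, where that share was 22.2%. In HFD-337 against HFD-338 all 4 were called lower beside 29.6% of tested genes, with log2 fold changes of -2.55 (SE 0.364) for Cybb, -1.44 (SE 0.312) for Cyba, -1.62 (SE 0.382) for Ncf1 and -1.73 (SE 0.454) for Ncf4. These 3 comparisons share the HFD-338 libraries, and nothing is read from the counts because the members were selected on these values. Each count was 4 with any library left out. The median log2 fold change of the 4 in HFD-338 against HFD-NS was 1.51, beside 0.00093 over all genes tested.

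HFD-Res and HFD-337 differed less from HFD-NS in these genes. In HFD-Res against HFD-NS the log2 fold changes ran from -0.41 for Cyba to 0.04 for Ncf4, with SEs of 0.342 to 0.515, and 0 of 4 were called, also by DESeq2 and limma-voom and at an unadjusted p under 0.05. In that comparison 13% of tested genes were called in either direction. The members were selected on their levels in these groups, so calls of members here and below are descriptions. In HFD-337 against HFD-NS, Cybb differed by -0.94 (SE 0.377) with overlapping libraries, while Cyba, Ncf1 and Ncf4 differed by -0.27, -0.20 and -0.06 (SEs 0.332 to 0.512). None was called, with 1 lower at an unadjusted p under 0.05, beside 47.2% of tested genes called in either direction, and 22.8% called lower. Cybb was called lower with DESeq2, with limma-voom and with recomputed TPM, and without HFD-337 replicate 23 (log2 fold change -1.51) or without HFD-NS replicate 12. It was also called lower in HFD-337 against HFD-Res without HFD-337 replicate 23, at -1.12 instead of -0.55, where 47.6% of tested genes were called.

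In HFD-NS against SD-NS all 4 phagocyte members were higher on average, with log2 fold changes of 1.17 (SE 0.375) for Cyba, 0.91 (SE 0.381) for Cybb, 0.78 (SE 0.452) for Ncf1 and 1.28 (SE 0.626) for Ncf4. HFD-NS and SD-NS libraries did not overlap for Cyba and Cybb, and did for Ncf1 and Ncf4. Cyba alone was called, beside 12% of tested genes called higher, and nothing is read from this because the selection used these levels. That call was lost without HFD-NS replicate 13 or 16 or SD-NS replicate 6 or 7, which left 0 called. Cybb was called with DESeq2 and in a fit of these groups alone, and Ncf4 without SD-NS replicate 8 (log2 fold change 2.20).

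**Figure D2:**
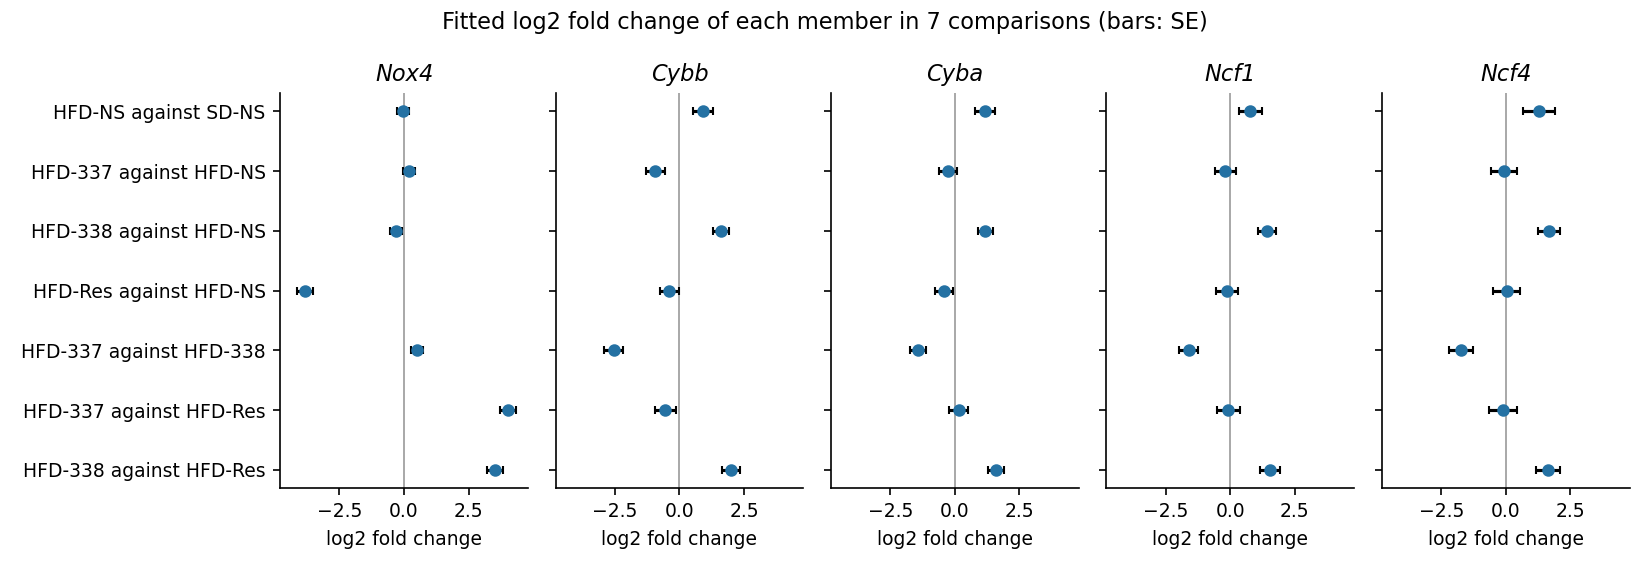
Fitted log2 fold change of each member in 7 comparisons, named at the left with the group on top of the ratio first; bars are 1 SE from the edgeR fit of 15 libraries. Nox4 departs from 0 where HFD-Res enters the comparison (-3.83 against HFD-NS), and the others lie furthest from 0 where HFD-338 does (Cybb 1.61 against HFD-NS).

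Across the libraries of all groups the phagocyte members, selected on their group levels, varied together, and no correlation within a group was computed. Pearson r of log2 CPM between pairs of them ran from 0.820 for Cybb with Ncf4 to 0.934 for Cybb with Ncf1 over the 15 libraries, which share their groups. Nox4 had an r of -0.06 to 0.08 with each of the 4, and a Spearman rho of -0.29 with Cyba, -0.42 with Cybb, -0.49 with Ncf1 and -0.49 with Ncf4. Cybb made up 51.5 to 55.3% of the reads of the 4 members in HFD-337, 69.4 to 70.1% in HFD-338 and 58.5 to 66.7% in HFD-Res, against 62.7 to 67.8% in HFD-NS. In SD-NS it made up 58.6 to 74.1%, a range that overlapped HFD-338, HFD-Res and HFD-NS.

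The levels of the catalytic subunits Nox4 and Cybb were compared per length, in TPM. Nox4 averaged 35.4 ± 9.69 TPM in HFD-337, 30.5 ± 5.47 TPM in HFD-338 and 2.30 ± 0.893 TPM in HFD-Res, against 34.5 ± 3.65 TPM in HFD-NS. Cybb averaged 4.63 ± 3.08 TPM in HFD-337, 30.9 ± 10.6 TPM in HFD-338 and 6.97 ± 0.629 TPM in HFD-Res, against 9.22 ± 3.27 TPM in HFD-NS (SD, n = 3 each). In SD-NS, Nox4 averaged 32.8 ± 2.00 TPM and Cybb 4.48 ± 0.120 TPM. The TPM ratio of Nox4 to Cybb was thus 3.58 to 14.3 in HFD-337, 0.590 to 1.67 in HFD-338 and 0.195 to 0.514 in HFD-Res, against 2.39 to 5.20 in HFD-NS. In SD-NS it was 6.86 to 8.06, within the range of HFD-337. The ratio of Cyba to Cybb in TPM was 2.02 to 2.82 in HFD-337, 0.910 to 1.29 in HFD-338 and 1.07 to 1.76 in HFD-Res, against 1.24 to 1.69 in HFD-NS. In SD-NS it was 0.939 to 1.37, so its HFD-337 libraries lay above those of the other groups.

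Macrophage markers were read beside these genes. Summed CPM of the 4 members was 10.8 to 37.0 in HFD-337, 71.6 to 127 in HFD-338 and 24.6 to 28.3 in HFD-Res, against 24.4 to 44.7 in HFD-NS. In SD-NS it was 15.7 to 19.7 CPM. Summed markers of Kupffer cells and macrophages were 96.6 to 201 CPM in HFD-337, 270 to 699 CPM in HFD-338 and 269 to 364 CPM in HFD-Res, against 266 to 336 CPM in HFD-NS. In SD-NS they were 190 to 327 CPM, overlapping HFD-NS. Summed markers of macrophages that derive from monocytes or are rich in lipid were 72.6 to 276 CPM in HFD-337, 666 to 772 CPM in HFD-338 and 82.3 to 94.2 CPM in HFD-Res, against 61.8 to 102 CPM in HFD-NS. In SD-NS they were 35.0 to 50.1 CPM, below every HFD-NS library. The members averaged 22.6 CPM in HFD-337 and 33.8 CPM in HFD-NS, and the first list 146 CPM in HFD-337 and 295 CPM in HFD-NS. The mean of the second list was 154 CPM in HFD-337, where replicate 23 held 276 CPM, against 81.5 CPM in HFD-NS, with overlapping libraries. Its gene Spp1 alone averaged 109 ± 84.6 CPM in HFD-337 and 42.2 ± 5.86 CPM in HFD-NS, with overlapping libraries. In HFD-338 Spp1 averaged 586 ± 72.5 CPM, so in these groups the sums of the second list rest largely on that gene. In HFD-NS against SD-NS, 5 of the 10 markers of the second list rose, among them Gpnmb (log2 fold change 4.08, adjusted p = 0.000192) and Mmp12 (3.92, adjusted p = 8.67e-05), and 3 rose without SD-NS replicate 6. Of the 15 Kupffer cell and macrophage markers 2 rose and 1 fell there, and 0 rose without HFD-NS replicate 13 or SD-NS replicate 7. The share of all tested genes called higher in HFD-NS against SD-NS was 12%. None of these 25 markers was at 0 in any group.

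In HFD-338 against HFD-NS, 9 of the 10 markers of macrophages from monocytes or rich in lipid rose, among them Ms4a7 (log2 fold change 4.45, adjusted p = 3.89e-08) and Spp1 (3.8, adjusted p = 0.00011). The count was 5 without HFD-NS replicate 12. The share of all tested genes called higher in this comparison was 18.9%. Of 15 Kupffer cell and macrophage markers 6 rose, among them the macrophage surface receptor Adgre1 (1.40, adjusted p = 0.00141), and the scavenger receptor Cd163 fell (-3.13, adjusted p = 0.00482). The Cd163 call was lost with limma-voom (adjusted p = 0.0552), and 21.2% of its exon length is shared with another gene. As a percentage of Kupffer cell and macrophage markers, the members made up 11.2 to 18.4% in HFD-337 and 18.2 to 26.5% in HFD-338, against 9.16 to 13.3% in HFD-NS. HFD-337 overlapped both of the other groups. As a percentage of both macrophage lists together they made up 6.87 to 9.33% in HFD-338 and 7.04 to 10.2% in HFD-NS, with overlapping libraries. Spp1 averaged 586 ± 72.5 CPM of that total in HFD-338 and 42.2 ± 5.86 CPM in HFD-NS. The count ratio of Cybb to Csf1r, which encodes a growth factor receptor of macrophages, was 1.06 to 1.32 in HFD-337 and 1.46 to 1.66 in HFD-338, against 0.762 to 1.03 in HFD-NS, so the libraries of both groups lay above those of HFD-NS. This ratio was 0.838 to 1.20 in HFD-Res and 0.554 to 1.11 in SD-NS, and both ranges overlapped HFD-337. The part of these markers in the higher subunit levels was not tested.

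**Figure D3:**
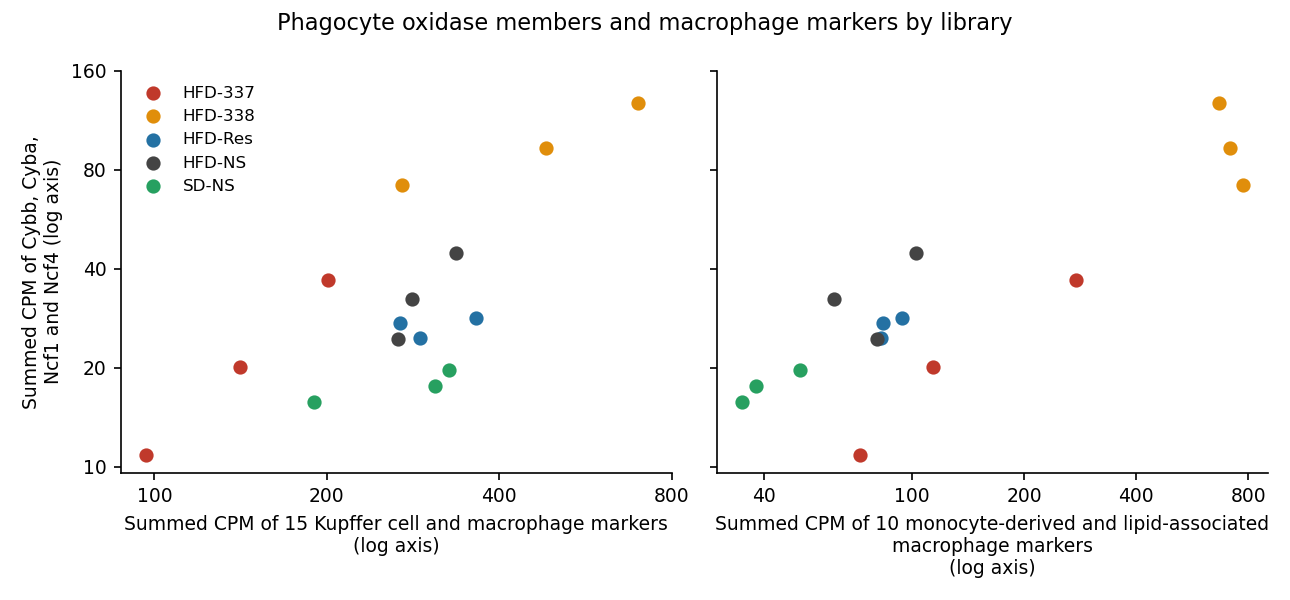
Summed CPM of Cybb, Cyba, Ncf1 and Ncf4 (vertical, log axis) against summed CPM of 15 Kupffer cell and macrophage markers (left) and of 10 markers of macrophages from monocytes or rich in lipid (right, log axes); each point is a library. HFD-338 libraries lie at 71.6 to 127 CPM of the members and 666 to 772 CPM of the second list, apart from the other groups.

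In HFD-337 against HFD-NS, 5 of 15 Kupffer cell and macrophage markers fell, among them the mannose receptor Mrc1 (-1.84, adjusted p = 9.8e-06), and 3 of the 10 markers of the other list rose. Among the 13189 genes tested 22.8% were called lower in that comparison, and 3214 genes rose. The falls numbered 3 without HFD-337 replicate 26 or 27 or HFD-NS replicate 13, and the rises 1 with limma-voom, with recomputed TPM and without HFD-NS replicate 12 or 16. In HFD-337, replicate 23 held 276 CPM of this second list and 37.0 CPM of the members, against 72.6 and 114 CPM of markers and 10.8 and 20.1 CPM of members in the other libraries of the group. In HFD-Res against HFD-NS 0 of 15 Kupffer cell and macrophage markers were called, with 1 higher and 1 lower at an unadjusted p under 0.05, 0 by DESeq2 and 1 higher by limma-voom. Of the second list 2 fell, the glycoprotein gene Gpnmb (-2.65, adjusted p = 0.00199) and the elastase Mmp12 (-1.49, adjusted p = 0.0215), whose call was lost under 7 of 12 other settings (highest adjusted p 0.189). In HFD-Res against HFD-NS 13% of all tested genes were called in either direction, and 6.74% were called lower. Neutrophils also carry this oxidase: 3 of their 10 markers were tested and 0 were called in HFD-338 against HFD-NS, with 2 higher at an unadjusted p under 0.05, 2 by DESeq2 and 0 by limma-voom. Their genes Ly6g, Camp, Ngp and Ltf were at 0 in HFD-Res, Ly6g, Ngp and Ltf also in SD-NS, and Camp in HFD-NS.

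The genes most like each phagocyte member over the 15 libraries included many genes known from leukocytes. Cybb was most like Cd44 (r 0.973, rho 0.946), an adhesion receptor, Cd53 (r 0.972, rho 0.929), a leukocyte tetraspanin, and Lyz2 (r 0.971, rho 0.943), the lysozyme of macrophages and neutrophils. Cyba was most like Cotl1, Cd52 and Ly86 (r 0.966 to 0.971), Ncf1 most like C1qa, Rgs2 and Cd48 (r 0.964 to 0.973), and Ncf4 most like Tyrobp, Tlr1 and Ms4a6b (r 0.949 to 0.951). Each of these 12 genes had its highest mean in HFD-338. They were picked for likeness to members selected on these levels, so nothing is read from the shared highest group. C1qa stands in the Kupffer cell and macrophage list above and Tyrobp in the list of activating signals.

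Of 13 further NADPH oxidase genes, 8 had enough counts to be tested. Nox3, the catalytic subunit of the inner ear, had no count in 15 libraries, which allows a level of up to 0.0296 CPM by counting error (3 counts over all libraries). Duox1 and Duox2, the dual oxidases of thyroid and airway, and their maturation factors Duoxa1 and Duoxa2 had at most 5 counts in any group.

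Rac2, the GTPase of the phagocyte enzyme, rose by 1.20 (SE 0.378) on the log2 scale in HFD-338 against HFD-NS (adjusted p = 0.0204), to 9.46 ± 3.89 CPM in HFD-338 against 4.12 ± 1.75 CPM in HFD-NS. The call was lost without HFD-338 replicate 18 or HFD-NS replicate 12 (highest adjusted p 0.118). Hvcn1, the proton channel that balances the charge moved by the oxidase, rose by 1.35 (SE 0.281, adjusted p = 0.000957), to 6.04, 7.05 and 4.45 CPM in HFD-338 against 2.10, 2.11 and 2.64 CPM in HFD-NS. Its exons overlap those of Tctn1 over 45.4% of their length, and Tctn1 rose by 0.86 (adjusted p = 0.0159), so reads of the 2 genes cannot be told apart there. Cybc1, a chaperone for the Cybb and Cyba pair, averaged 13.6 ± 2.16 CPM in HFD-338 and 12.1 ± 0.160 CPM in HFD-NS and was not called (adjusted p = 0.481). In HFD-337 it averaged 16.5 ± 2.48 CPM (adjusted p = 0.0536 against HFD-NS).

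Rac1, the ubiquitous GTPase, fell by 0.50 (SE 0.085) on the log2 scale in HFD-337 against HFD-NS (adjusted p = 9.77e-05), with 101 ± 4.25 CPM in HFD-337 against 143 ± 3.20 CPM in HFD-NS. It fell by 0.26 in HFD-338 (adjusted p = 0.0223), which was lost with recomputed TPM (adjusted p = 0.335) and without HFD-338 replicate 18 or 19 or HFD-NS replicate 12 or 13. Poldip2, which binds Cyba and raises the activity of Nox4, fell by 0.52 (SE 0.0922) in HFD-338 against HFD-NS (adjusted p = 0.00024), to 49.3, 44.4 and 51.2 CPM in HFD-338 against 66.6, 67.3 and 73.9 CPM in HFD-NS. In HFD-Res, where Nox4 was lowest, Poldip2 averaged 63.8 ± 5.38 CPM (log2 fold change -0.12, adjusted p = 0.483 against HFD-NS).

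The activator Noxa1, which serves the Nox1 enzyme, was highest in HFD-337. It held 41.7, 32.9 and 33.5 CPM in HFD-337, 7.75, 8.04 and 6.54 CPM in HFD-338, and 11.6, 12.9 and 12.6 CPM in HFD-Res, against 7.71, 8.94 and 7.80 CPM in HFD-NS. The log2 fold change in HFD-337 against HFD-NS was 2.14 (SE 0.145, adjusted p = 5.8e-09), and no HFD-337 library overlapped another group. In HFD-Res it was 0.60 (SE 0.161, adjusted p = 0.0158), which was lost with recomputed TPM and without HFD-Res replicate 30 or 34 or HFD-NS replicate 12 or 16 (highest adjusted p 0.0664).

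Exons of Noxa1 overlap those of its neighbour Entpd8, an ectonucleotidase gene, over 2.99% of their length. Entpd8 rose by 0.95 (adjusted p = 2.12e-07), to a mean of 162 CPM in HFD-337 against 84.2 CPM in HFD-NS, and its part in the Noxa1 counts was not tested. Of 3544 tested genes that span under 10 kb, Noxa1 among them, 1417 rose in HFD-337 against HFD-NS, and the 95th percentile of their log2 fold changes was 1.51. Nox1 itself, a catalytic subunit known from the colon, averaged 10.7 ± 0.197 CPM in HFD-337 and 6.76 ± 1.92 CPM in HFD-NS (log2 fold change 0.66, adjusted p = 0.00972, and 0.0624 without HFD-NS replicate 13), and 15.7% of its exon length is shared with Cstf2. The organizer Noxo1 averaged 2.01 ± 0.305 CPM in HFD-337 and 1.49 ± 0.446 CPM in HFD-NS and was not called (adjusted p = 0.362).

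**Figure D4:**
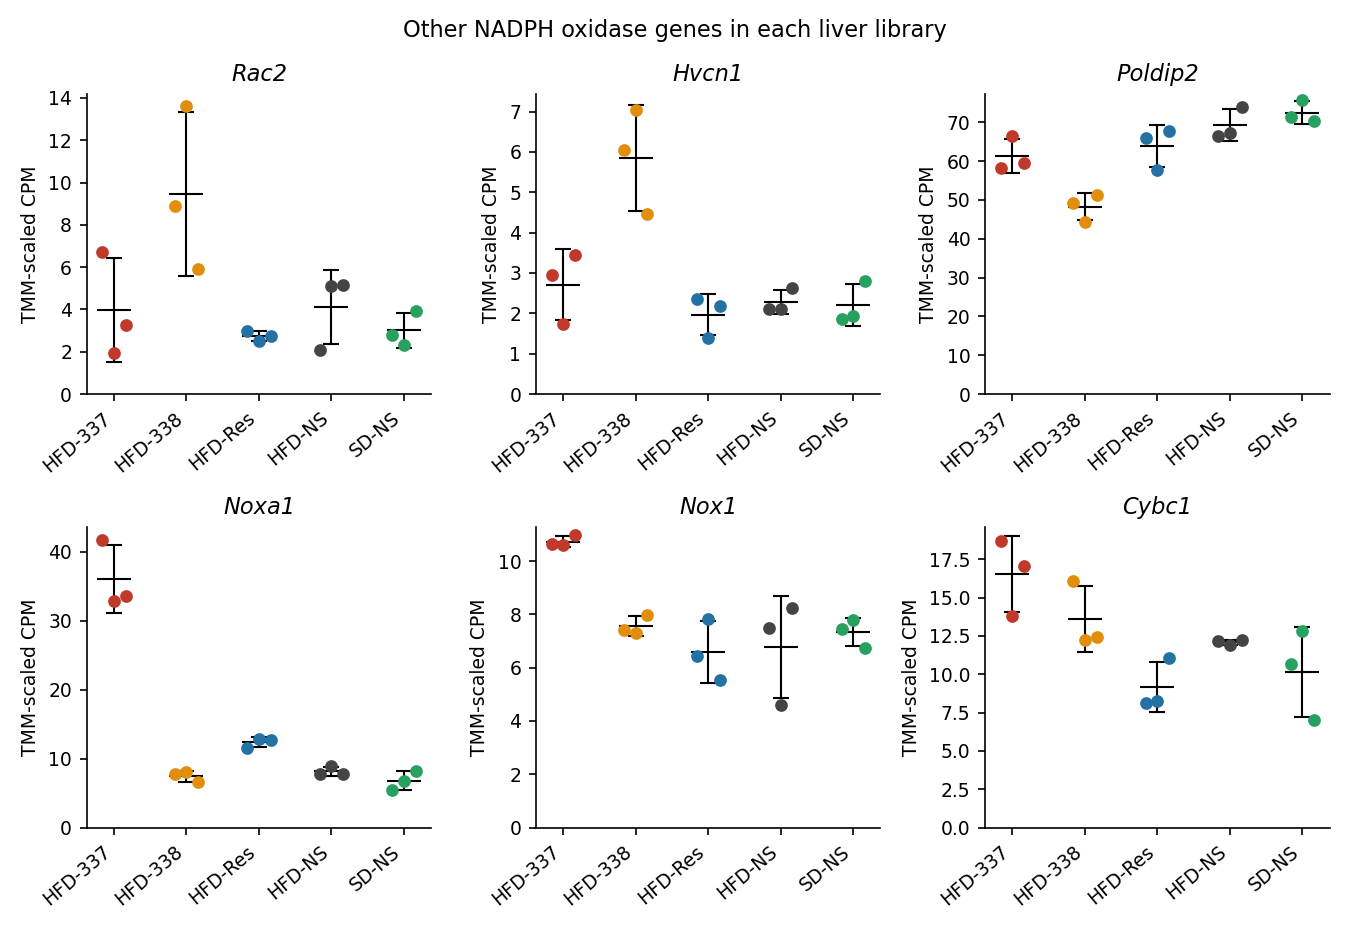
TMM-scaled CPM of Rac2, Hvcn1, Poldip2, Noxa1, Nox1 and Cybc1 in every library; horizontal bars are group means and vertical bars 1 SD (n = 3 per group). Noxa1 lay between 32.9 and 41.7 CPM in HFD-337 and below 13 CPM elsewhere, while Rac2 and Hvcn1 had their highest means in HFD-338.

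Genes of the receptors and kinases that switch on the phagocyte oxidase formed a list of 15, all tested. In HFD-338 against HFD-NS 10 rose and 0 fell, among them the beta-glucan receptor Clec7a (log2 fold change 1.57, adjusted p = 0.00327) and the kinase Pak1 (1.95, adjusted p = 0.000152). The rises numbered 8 to 12 with 1 library left out, and 18.9% of all tested genes were called higher there. The median log2 fold change of the list was 1.05, beside 0.00093 over all genes. Against HFD-NS, 4 of the 15 fell in HFD-337, where 22.8% of all tested genes were called lower, among them the Rac exchange factor Prex1 (-1.28, adjusted p = 0.00136), which shares 12.2% of its exon length with another gene, and the count was 2 without HFD-337 replicate 26 or HFD-NS replicate 13 or 16. In HFD-Res against HFD-NS 0 were called, beside 13% of all tested genes, with 5 lower at an unadjusted p under 0.05, 1 lower by DESeq2 and 0 by limma-voom. In HFD-NS against SD-NS 3 rose, among them the integrin subunit Itgb2 (1.47, adjusted p = 0.0106), beside 12% of all tested genes called higher. The count was 6 by limma-voom, 6 when these groups were fitted alone, 6 without HFD-NS replicate 12, and 1 without SD-NS replicate 7. Itgb2 was lost without SD-NS replicate 6 or 7 (highest adjusted p 0.0683).

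Of 8 transcription factors known to drive phagocyte oxidase genes, Irf8 rose (1.20, adjusted p = 0.00276) and Cebpa fell (-0.87, adjusted p = 4.47e-05) in HFD-338 against HFD-NS. No other gene of this list was called, while 36.8% of all tested genes were called there in either direction. The median log2 fold change of the list was -0.06, beside 0.00093 over all genes tested. Irf8 averaged 10.9 ± 2.64 CPM in HFD-338 and 4.75 ± 1.93 CPM in HFD-NS. Cebpa, which hepatocytes also express, averaged 158 ± 17.4 CPM in HFD-338 and 288 ± 45.1 CPM in HFD-NS. In HFD-Res against HFD-NS 0 of the 8 were called, with 1 higher and 1 lower at an unadjusted p under 0.05 and 0 by DESeq2 or limma-voom. The share of all tested genes called there was 13%.

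TGF-beta signalling, a known inducer of Nox4, was read through 14 genes. In HFD-Res against HFD-NS 3 rose and 2 fell, where 13% of all tested genes were called in either direction. The co-receptor Tgfbr3 rose by 1.24 (adjusted p = 0.000248), and the signal transducer Smad3 fell by 0.50 on the log2 scale (adjusted p = 0.0310), a call lost in 7 of 12 other settings (highest adjusted p 0.149). The rises numbered 1 with recomputed TPM and without HFD-Res replicate 30 or HFD-NS replicate 16, and the falls 0 with DESeq2, with recomputed TPM and without HFD-Res replicate 30 or 34 or HFD-NS replicate 13 or 16. They numbered 1 in the fit of these groups alone and without HFD-NS replicate 12. In HFD-338 against HFD-NS 8 rose and 0 fell, among them the ligand Tgfb2 (3.14, adjusted p = 0.000106) and the target Ccn2 (2.12, adjusted p = 8.59e-07), while Nox4 differed by -0.31 (SE 0.226). The rises numbered 6 to 8 with 1 library left out, and 18.9% of all tested genes were called higher there. Against HFD-NS, 8 fell and 1 rose in HFD-337, among them the receptor Tgfbr2 (-1.67, adjusted p = 5.1e-07), and the fall count was 5 to 8 when each library was left out, lowest without HFD-337 replicate 26. Of all tested genes 22.8% were called lower there. In that comparison 9 of 10 sinusoidal endothelium markers fell, among them Lyve1 (-2.53, adjusted p = 9.05e-08), with sums of 90.0 to 113 CPM in HFD-337 and 233 to 272 CPM in HFD-NS. Of 13 stellate cell and fibroblast markers 6 fell, among them Reln (-1.42, adjusted p = 6.72e-05), with sums of 193 to 397 CPM in HFD-337 and 454 to 568 CPM in HFD-NS. In HFD-338 against HFD-NS 6 of these 13 rose and 1 fell, and 5 of the 10 endothelial markers fell, where 36.8% of all tested genes were called in either direction. The part of these markers in the TGF-beta genes was not tested.

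Enzymes that remove superoxide and peroxide, the products of these oxidases, numbered 17. In HFD-Res against HFD-NS 3 fell, the catalase gene Cat (-0.60, adjusted p = 0.000466), Gpx4 (-0.36, adjusted p = 0.0265) and Prdx2, and the count was 1 without HFD-Res replicate 30 or HFD-NS replicate 12. The share of all tested genes called lower in that comparison was 6.74%. Gpx4 was lost in 5 of 12 other settings (highest adjusted p 0.128). Against HFD-NS, 3 rose and 6 fell in HFD-338, where 36.8% of all tested genes were called, among them the mitochondrial dismutase Sod2, which fell by 0.74 on the log2 scale (adjusted p = 4.05e-06), and the plasma peroxidase Gpx3, which rose by 2.47 (adjusted p = 0.000102). Against HFD-NS, 5 rose and 3 fell in HFD-337, a count of 8 of 17 that is near the 47.2% of all tested genes called there, among them the peroxiredoxin Prdx4, which rose by 0.91 (adjusted p = 6.36e-06). With recomputed TPM 3 rose and 8 fell there, and 3 rose without HFD-NS replicate 13.

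Of 14 genes that supply NADPH, the substrate of all these enzymes, 3 rose and 4 fell in HFD-Res against HFD-NS. In that comparison 13% of all tested genes were called in either direction. The malic enzyme gene Me1 averaged 380 ± 70.9 CPM in HFD-Res and 109 ± 16.6 CPM in HFD-NS and rose by 1.80 (adjusted p = 1.86e-06). Nadk, the kinase that makes NADP, rose by 0.48 (adjusted p = 0.000622), and the mitochondrial dehydrogenase Idh2 fell by 1.08 on the log2 scale (adjusted p = 0.000644). The falls numbered 1 without HFD-Res replicate 30 or HFD-NS replicate 13, and 2 without HFD-Res replicate 34 or HFD-NS replicate 16. Against HFD-NS, 2 rose in HFD-338, G6pdx (0.94, adjusted p = 0.0187) and Pgd (0.89, adjusted p = 8.67e-05), both of the oxidative pentose phosphate pathway, and 5 fell. The share of all tested genes called there in either direction was 36.8%. G6pdx was lost without HFD-338 replicate 18 or HFD-NS replicate 12 (highest adjusted p 0.0897). The falls numbered 2 with recomputed TPM, 3 with RLE factors and 3 without either of these libraries or HFD-NS replicate 16. Me1 fell by 0.82 on the log2 scale in HFD-338 (adjusted p = 0.00111). Against HFD-NS, 1 rose and 6 fell in HFD-337, where 47.2% of all tested genes were called in either direction and 22.8% were called lower. The median log2 fold change of the list was -0.33 there, beside 0.03 over all genes tested. The largest fall was that of Me1, by 1.99 on the log2 scale (adjusted p = 3.47e-07).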

How the data were processed

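Per the labels' protocols, total liver RNA was extracted with TRIzol and chloroform and its polyadenylated part was selected. Tools named in the submitters' processing notes are STAR 2.7.10b, featureCounts 2.0.1, Trim Galore 0.6.10 and, with no role stated, Bowtie 1.3.1; the build is mm39. The file headers show that the counts deposited by the authors are unstranded exon reads per gene, and that a read overlapping several genes counts for all of them. Exons of the 5 members overlap no other gene. Exon length in bases stands beside the counts deposited by the authors. A TPM table of 15 columns was not used.

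Libraries were grouped by their titles. Counts were filtered with filterByExpr, scaled by TMM and fitted in 1 robust quasi-likelihood model of 15 libraries with edgeR 4.0.16 in R 4.3.3 (common biological coefficient of variation 0.134), with 7 comparisons. TPM was recomputed from counts and exon lengths. SEs are the log2 fold change over the root of the F statistic. The procedure was tested on simulated counts. Replicates differed by more than sampling noise (chi-square over degrees of freedom 5.46 to 32.3). Exon overlaps came from bedtools 2.31.1. The members and the gene lists were chosen with earlier results of these data known. Of the lists, up to 2 called genes per direction and comparison may be named, those with the largest change, and every further oxidase gene of the list is accounted for, though a few genes are not reported here; Prdx2, outside that rule, completes a count of 3 and was named after its values were seen. The alternatives were DESeq2 1.42.0, limma-voom with quality weights (limma 3.58.1), RLE factors, genes kept at any count, a fit of the compared groups alone, limma on log2 of recomputed TPM plus 1, and leaving out each library.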

Additional observations from a re-analysis of the deposited data

How the results depend on the processing

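The fall of Nox4 in HFD-Res and the higher level of Cybb, Cyba, Ncf1 and Ncf4 in HFD-338 were called under every alternative run, which is a description only, since the genes were selected on these values. In HFD-NS against SD-NS, 2 phagocyte members were called higher with DESeq2 and in the fit of those groups alone, and 0 to 2 when libraries were left out, against 1 in the fit of all libraries. In HFD-337 against HFD-NS, 1 was called lower with DESeq2, limma-voom and recomputed TPM, and 0 to 1 with libraries left out, as in HFD-337 against HFD-Res, against 0 in the fit of all libraries. With recomputed TPM the log2 fold change of Nox4 in HFD-337 against HFD-Res was 3.46 instead of 4.02, and Mthfd1 in HFD-337 against HFD-338 turned to -0.0283 (adjusted p = 0.809). With libraries left out, Nox4 in HFD-Res against HFD-NS ran from -4.27 to -3.61. Ncf4 ran from -2.49 to -1.25 in HFD-337 against HFD-338, -0.83 to 0.41 in HFD-337 against HFD-NS, -0.87 to 0.37 in HFD-337 against HFD-Res, 0.84 to 2.20 in HFD-NS against SD-NS, and -0.27 to 0.18 in HFD-Res against HFD-NS. Genes called in HFD-Res against HFD-NS numbered 1134 to 1467 with 1 library left out, lowest without HFD-Res replicate 34, against 1709 with all libraries. The cause of these shifts was not tested.

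Recomputed TPM moved the median log2 fold change of all genes by 0.11 in HFD-NS against SD-NS, -0.14 in HFD-337 and 0.13 in HFD-338 against HFD-NS, -0.27 in HFD-337 against HFD-338, and -0.14 and 0.13 in HFD-337 and HFD-338 against HFD-Res. Calls then split into 1984 rises and 1098 falls in HFD-NS against SD-NS (1589 and 2122 by CPM), 2220 and 3593 in HFD-337 against HFD-NS (3214 and 3006), 2782 and 1359 in HFD-338 against HFD-NS (2490 and 2357), 2187 and 5284 in HFD-337 against HFD-338 (3794 and 3907), 2410 and 3739 in HFD-337 against HFD-Res (3205 and 3078), and 3580 and 1778 in HFD-338 against HFD-Res (2926 and 2761). Ncf4 could not be tested in the fit of HFD-337 and HFD-Res alone, where it did not pass the filter. No paired analysis was possible because the groups share no replicate numbers. With 1 to 64 counts a library, depth limits what Ncf4 can show.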
